A study of Homo sapiens with 4 samples.

Results

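Netrins and the receptors they bind were followed in TR9_MeTA14 and TR15_MeTA5 cells, derivatives of the human prostate cancer cell line LNCaP that carry an inducible methylated-DNA binder fused to an activation domain. The genes were UNC5A, UNC5B, UNC5C and UNC5D, DCC, NEO1, the ligands NTN1 and NTN4, the neurotrophin receptor NTRK3 and the kinase DAPK1. They were taken by name, with every probe that a RefSeq accession paired with them, which gave 14 probes of 10 genes among 34127 probes and 19483 named genes.

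TR9_MeTA14 and TR15_MeTA5 are single stable transfectants that both hold the Tet repressor (pcDNA6/TR) and a FLAG-tagged NFκB (AD)-MBD construct (pcDNA4/TO), with or without tetracycline. Their parents, TR9 and TR15, hold the repressor alone. In NFκB (AD)-MBD a methyl-CpG-binding domain is joined to the activation domain of NFκB, and the question was which methylated genes come up when tetracycline induces it. Total RNA was measured after 4 days with tetracycline (+Tet) or without it (-Tet) on 1-colour Agilent whole-genome arrays, with 1 array per condition and 4 arrays in all. No array of tetracycline-treated cells that lack the construct was used here, so tetracycline itself and the induced protein cannot be told apart.

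Netrins are secreted, laminin-related proteins that steer growing axons and vessels. DCC, its relative neogenin (NEO1) and the UNC5 receptors bind them at the cell surface. DCC, the UNC5 receptors and TrkC (NTRK3, the receptor of neurotrophin-3) are called dependence receptors, because they signal survival or guidance while the ligand is bound and can trigger apoptosis when it is absent. The death-associated kinase DAPK1 is one of the effectors through which UNC5 receptors kill, and DCC and several UNC5 genes are silenced in many epithelial tumours.

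Methylation was not measured on these arrays, but the induced protein binds methylated CG, so the CG content of each promoter is the sequence feature the design bears on. RefSeq promoter windows on GRCh38.p14, from 250 bases before to 50 bases after the start, were at hand for 7 of the 10 genes (UNC5A, UNC5C, DCC, NEO1, NTN4, NTRK3 and DAPK1), in 9 windows. No window was at hand for NTN1, UNC5B or UNC5D. The CG counts thus do not cover NTN1 and UNC5B, the genes of the group that were higher in both lines. The motif counted was CG, which reads the same on both strands. The windows with the most and the fewest CG and the richer DAPK1 window are shown 5′ to 3′ on the strand of the gene, each CG in capitals. UNC5A was at least 2-fold lower with tetracycline in TR9_MeTA14, DAPK1 was at least 2-fold lower in TR15_MeTA5, and DCC was not detected.
UNC5A, chr5:176810309-176810608, plus strand: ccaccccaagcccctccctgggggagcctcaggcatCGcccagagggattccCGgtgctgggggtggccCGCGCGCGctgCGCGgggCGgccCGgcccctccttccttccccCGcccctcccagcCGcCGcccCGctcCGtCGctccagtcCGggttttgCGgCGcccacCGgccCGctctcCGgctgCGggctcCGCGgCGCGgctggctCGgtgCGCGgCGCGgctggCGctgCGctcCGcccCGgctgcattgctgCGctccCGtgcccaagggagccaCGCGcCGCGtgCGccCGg
DAPK1, chr9:87497617-87497916, plus strand: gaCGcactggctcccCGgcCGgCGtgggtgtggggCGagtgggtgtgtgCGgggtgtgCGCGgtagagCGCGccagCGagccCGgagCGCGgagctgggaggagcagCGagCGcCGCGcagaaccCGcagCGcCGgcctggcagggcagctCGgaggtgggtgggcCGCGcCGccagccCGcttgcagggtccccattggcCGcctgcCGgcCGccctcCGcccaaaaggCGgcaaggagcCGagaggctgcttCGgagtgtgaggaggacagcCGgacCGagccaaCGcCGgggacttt
DCC, chr18:52339947-52340246, plus strand: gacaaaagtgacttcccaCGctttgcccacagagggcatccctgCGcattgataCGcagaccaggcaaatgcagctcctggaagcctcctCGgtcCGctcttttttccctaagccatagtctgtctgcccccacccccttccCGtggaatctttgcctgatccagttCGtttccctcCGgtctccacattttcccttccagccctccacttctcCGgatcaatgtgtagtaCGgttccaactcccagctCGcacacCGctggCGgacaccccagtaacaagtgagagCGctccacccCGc

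The UNC5A window held 44 CG dinucleotides, and 4.19% of all 35116 promoter windows held as many or more. DAPK1 had 37 and 33 in its windows, NTN4 40 and 21, NEO1 35, NTRK3 30 and UNC5C 22. DCC had the fewest at 15, a count that 48.9% of all windows reached, and the quartiles of all windows were 4, 14 and 28. All 9 windows lay above the median and 6 of them above the upper quartile. The share of genes that were higher with tetracycline was not largest at the highest CG counts. Among 11127 genes with a window that were compared in both lines, at least 2-fold more signal in both was seen for 11.1% of genes with 0 to 9 CG, 8.31% with 10 to 19, 5.54% with 20 to 29 and 7.76% with 30 or more. A gene with several windows was counted by its richest one. A gene undetected without tetracycline was compared only if it was detected with it, which raises the share higher among such genes. These shares therefore cannot show how the response depends on CG content.

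**Figure D1:**
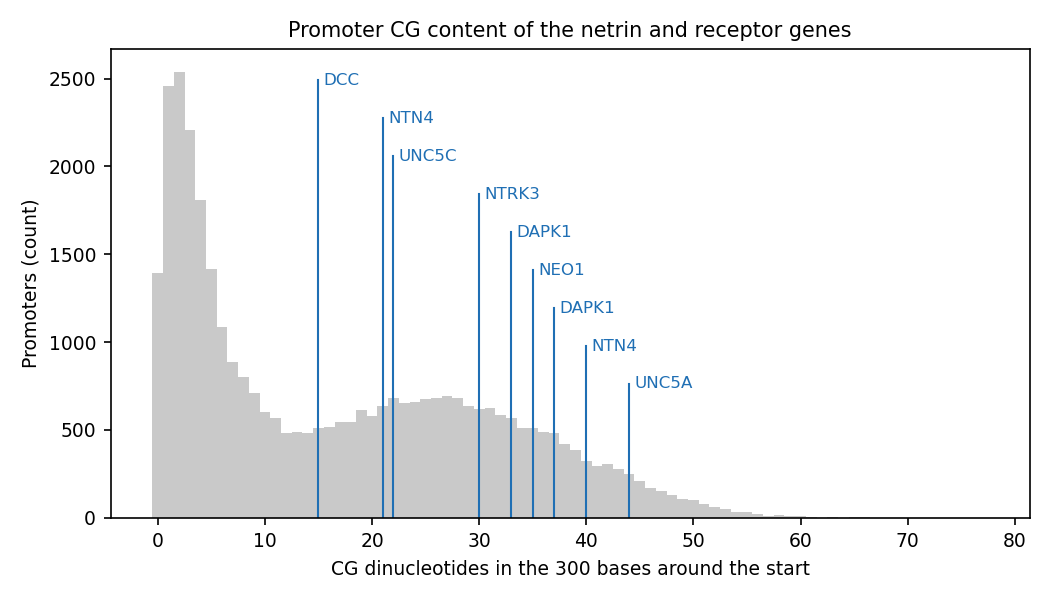
Number of CG dinucleotides in the RefSeq promoter window (x axis, count per window) against the number of windows (y axis). Grey bars are all 35116 windows and each blue line is 1 window of a named gene, its height set only for legibility; the 9 windows run from 15 (DCC) to 44 (UNC5A).

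Of the 10 genes, 6 were detected on at least 1 array, and 3 of these on all 4 arrays. Detection here means Agilent's own flag for a spot well above background, and signals are background-subtracted intensities, given with the error that the scanner software assigns to the spot. UNC5A, UNC5B and NTRK3 (by 1 of its 3 probes) were well above background on all 4 arrays. NTN1, NEO1 and DAPK1 were so on 3 arrays each. No probe of UNC5C, UNC5D, DCC or NTN4 reached that level on any array. In total 8 of the 14 probes (57.1%) were never well above background, against 25.4% of all probes, and their signals ran from 2.94 to 20.3, while the lowest signals well above background were 15.5, 13.9, 15.4 and 19.2 on the arrays of TR9_MeTA14 without and with tetracycline and of TR15_MeTA5 without and with it. None of these 4 genes was well above background with tetracycline in either line.

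The arrays differed in brightness, with 75th percentiles over all probes of 618, 777, 367 and 542 in the same order, so folds were taken after dividing each array by that percentile. Where the dimmer array was not well above background, the fold is a lower limit against the higher of its own signal and the lowest signal well above background on that array. All 4 arrays lay on the same slide, no spot was saturated, and each of the 14 probes had 1 spot. Probes with 10 spots gave the technical error of a log2 ratio as 0.264 for signals of 15 to 50, 0.122 for 50 to 200, 0.0822 for 200 to 1000 and 0.072 above 1000, which leaves out the spread between cultures. The median log2 ratio of the probes detected on all 4 arrays was -0.15 in TR9_MeTA14 and -0.19 in TR15_MeTA5, and scaling on spike-in controls moved it to -0.02 and 0.32.

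The ligand gene NTN1, which encodes netrin-1, gave the largest difference of the group in both lines. Its signal was 3.31 ± 3.31 on the TR9_MeTA14 -Tet array, not well above background, and 524 ± 52.5 with tetracycline. In TR15_MeTA5 it was 20.0 ± 3.82 without tetracycline, just above the detection level, and 2181 ± 218 with it. With tetracycline, NTN1 reached 67.5% of the array's 75th percentile in TR9_MeTA14 and 402% of it in TR15_MeTA5. After scaling, NTN1 was at least 27.0-fold higher with tetracycline in TR9_MeTA14 (log2 at least 4.75) and 73.6-fold higher in TR15_MeTA5 (log2 6.20 ± 0.19 technical SD). A larger log2 ratio was seen for 301 of 24251 probes compared in TR9_MeTA14 and for 29 of 22344 in TR15_MeTA5.

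NTN1 was also the only gene of the group whose increase passed the test over both lines. That test was limma with the lines as a block and Benjamini-Hochberg adjustment over 22818 probes, and it has 1 residual degree of freedom, since the lines stand in for replicates. Of those probes 2.53% passed an adjusted p of 0.05, 576 higher and 2 lower. NTN1 rose by a log2 of 6.59 (SE 0.34, limma adjusted p = 0.0152), and 34 probes had a smaller p. This fit took the TR9_MeTA14 -Tet background signal as measured. With signals under the detection level set to that level, a setting chosen after the values were seen, the log2 effect was 5.48 (SE 0.46, limma adjusted p = 0.0274). Without the line as a block the limma adjusted p was 0.0897.

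The other ligand gene, NTN4, a netrin of basement membranes, was not detected, with signals of 3.26, 2.94, 3.22 and 4.17 in the array order given above.

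**Figure D2:**
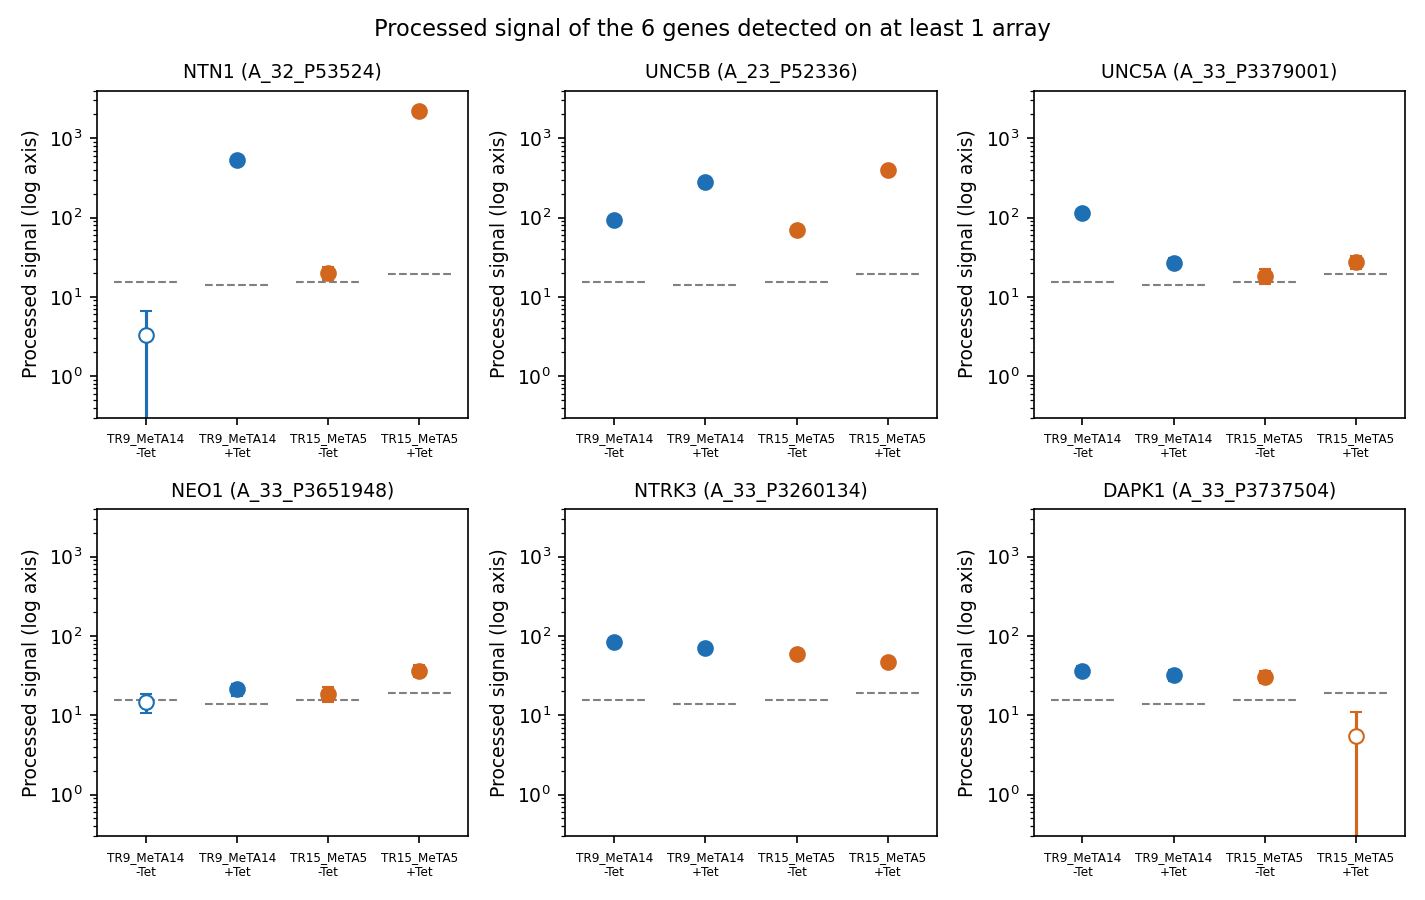
Processed signal (y axis, intensity, log axis) on each of the 4 arrays (x axis) for the 6 genes detected on at least 1 array, with the scanner software's error as bars, which run off the axis where they reach 0. Filled points were well above background, open points were not, and dashes mark the lowest signal well above background on that array; NTN1 stands at 524 and 2181 with tetracycline against 3.31 and 20.0 without.

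UNC5B, a netrin receptor of vessels and neurons that can signal death when unbound, was detected in every condition and was higher with tetracycline in both lines. Its signals were 92.7 ± 10.0 and 279.9 ± 28.2 in TR9_MeTA14 without and with tetracycline. In TR15_MeTA5 they were 68.8 ± 7.82 and 397 ± 40.0. These signals are not scaled between arrays, and the 75th percentile of the arrays was also higher with tetracycline in each line (777 against 618 and 542 against 367). UNC5B was 2.40-fold higher in TR9_MeTA14 (log2 1.26 ± 0.10 technical SD) and 3.90-fold higher in TR15_MeTA5 (log2 1.96 ± 0.10). These are moderate for these arrays, since 2947 probes had a larger ratio in TR9_MeTA14 and 885 in TR15_MeTA5. Over both lines the log2 effect was 1.61 (SE 0.32), which did not pass adjustment (limma adjusted p = 0.111), and 1259 probes had a smaller p. It passed with spike-in scaling (log2 effect 1.93, limma adjusted p = 0.0466), and in TR9_MeTA14 the difference was under 2-fold with normexp background correction followed by quantile normalization, which change together (log2 0.76).

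UNC5A, a receptor of the same family, was lower with tetracycline in TR9_MeTA14 and at nearly the same level in TR15_MeTA5. Its signal was 113 ± 11.8 on the TR9_MeTA14 -Tet array and 26.8 ± 4.04 with tetracycline. In TR15_MeTA5 it was 18.4 ± 3.79 without and 27.4 ± 5.12 with tetracycline. The TR9_MeTA14 -Tet array thus stood apart from the other 3, which lay close to the detection level. UNC5A was 5.30-fold lower with tetracycline in TR9_MeTA14 (log2 -2.41 ± 0.21 technical SD), where 452 of 24251 probes had a smaller ratio. With normexp and quantile normalization the log2 ratio was -1.15. In TR15_MeTA5 the ratio was 1.01-fold (log2 0.01 ± 0.27), and it took either sign between scalings, from -0.17 to 0.51. Over both lines the log2 effect was -1.20 (SE 0.68, limma adjusted p = 0.373). The difference between the lines has no test here, since each condition has a single array.

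The level of UNC5A without tetracycline already differed between the lines, being 3.64-fold lower in TR15_MeTA5 than in TR9_MeTA14, where 5.48% of 21652 probes were at least 2-fold lower. NTN1 was at least 2.18-fold higher in uninduced TR15_MeTA5 and NEO1 at least 2.03-fold, where 8.46% of probes were 2-fold higher. UNC5B differed by 1.25-fold. With tetracycline, NTN1 was 5.96-fold, NEO1 2.47-fold and UNC5B 2.03-fold higher in TR15_MeTA5 than in TR9_MeTA14, against 14.3% of 22985 probes at least 2-fold higher, and UNC5A differed by 1.46-fold. These are single arrays and carry no test.

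The remaining receptors were dim or undetected. UNC5C, another UNC5 receptor, gave 6.38, 10.1, 8.35 and 11.7 with 1 probe and 12.8, 4.85, 3.66 and 8.77 with the other, in the array order used above. UNC5D gave 3.85, 3.47, 3.76 and 5.10 with 1 probe and 3.38, 3.51, 3.32 and 4.24 with the other. DCC, the founding netrin receptor, gave 11.1, 3.18, 3.43 and 4.75. All of these were under the detection level on every array, so no fold is given.

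Neogenin (NEO1), which binds both netrins and repulsive guidance molecules, was near the detection level. Its signals were 14.7 ± 3.93, not well above background, and 21.2 ± 3.91 in TR9_MeTA14, and 18.7 ± 4.04 and 36.6 ± 6.01 in TR15_MeTA5, without and with tetracycline. It was at least 1.09-fold higher in TR9_MeTA14 and 1.32-fold higher in TR15_MeTA5 (log2 0.40 ± 0.27 technical SD), with a log2 effect over both lines of 0.30 (SE 0.38, limma adjusted p = 0.674). Differences of this size are not distinguishable from technical error at such signals.

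NTRK3 was detected by the probe for NM_002530, with 84.3 ± 8.99 and 70.1 ± 7.54 in TR9_MeTA14 and 60.0 ± 6.75 and 47.0 ± 6.10 in TR15_MeTA5, without and with tetracycline. After scaling it was 1.51-fold lower in TR9_MeTA14 (log2 -0.60 ± 0.12 technical SD) and 1.89-fold lower in TR15_MeTA5 (log2 -0.92 ± 0.22). The log2 effect over both lines was -0.76 (SE 0.31, limma adjusted p = 0.274). The probes for NM_001012338 and NM_001007156 were not well above background on any array, with signals up to 20.3 and 5.96, so the NTRK3 values describe only the transcripts that the first probe reads.

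DAPK1 gave similar low signals on 3 arrays and was not well above background on the fourth. They were 36.4 ± 5.44 and 32.2 ± 4.90 in TR9_MeTA14 without and with tetracycline, and 30.8 ± 5.07 and 5.46 ± 5.44 in TR15_MeTA5. DAPK1 was 1.42-fold lower in TR9_MeTA14 (log2 -0.51 ± 0.26 technical SD) and at least 2.37-fold lower in TR15_MeTA5 (log2 -1.24 or below). The log2 effect over both lines was -1.78 (SE 0.73, limma adjusted p = 0.273), and -0.88 with the background signal set to the detection level. The TR15_MeTA5 value rests on 1 spot, and it was under 2-fold with spike-in scaling (log2 limit -0.74) and with normexp and quantile normalization (-0.54).

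**Figure D3:**
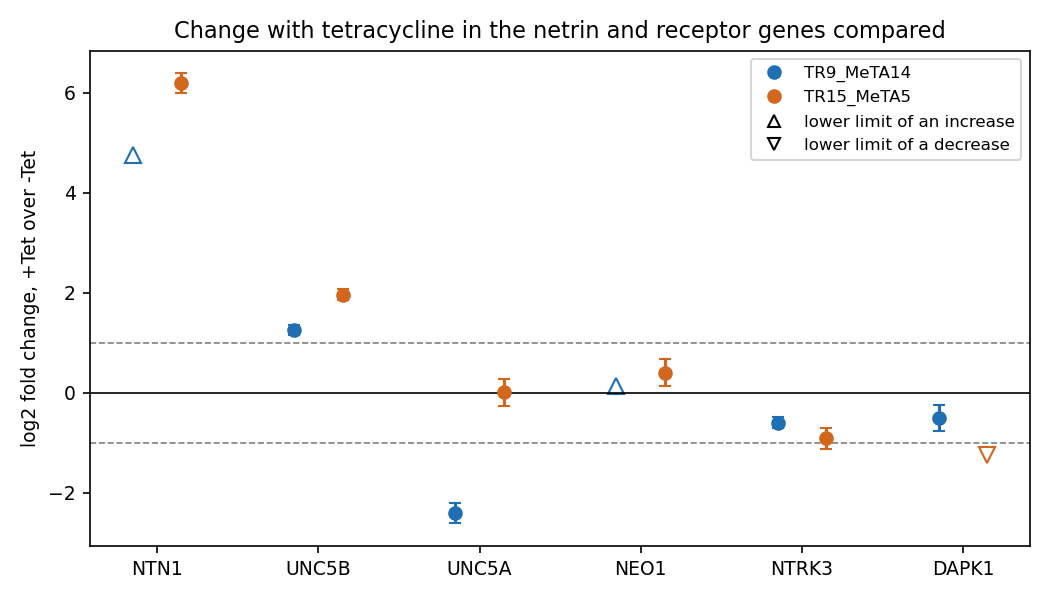
log2 ratio of the scaled signal with tetracycline over without it (y axis) for the 6 genes compared (x axis), with bars of 1 technical SD, triangles for lower limits and dashed lines at 2-fold. NTN1 and UNC5B are above the upper line in both lines, UNC5A is below the lower line in TR9_MeTA14 and DAPK1 in TR15_MeTA5.

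Counted together, 6 probes had a ratio in each line. In TR9_MeTA14, 2 of 6 were at least 2-fold higher (NTN1 and UNC5B) and 1 was at least 2-fold lower (UNC5A), while 15.2% of all compared probes were higher and 15.1% lower. In TR15_MeTA5, 2 of 6 were higher (the same 2) and 1 was lower (DAPK1), while 8.5% of all compared probes were higher and 2.67% lower. In both lines 2 were higher, against 7.02% of 21661 probes, and 1 was at least 10-fold higher (NTN1), against 1.36%. None was at least 2-fold lower in both lines. With 6 genes these counts describe the group and do not set it apart from other probes.

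**Figure D4:**
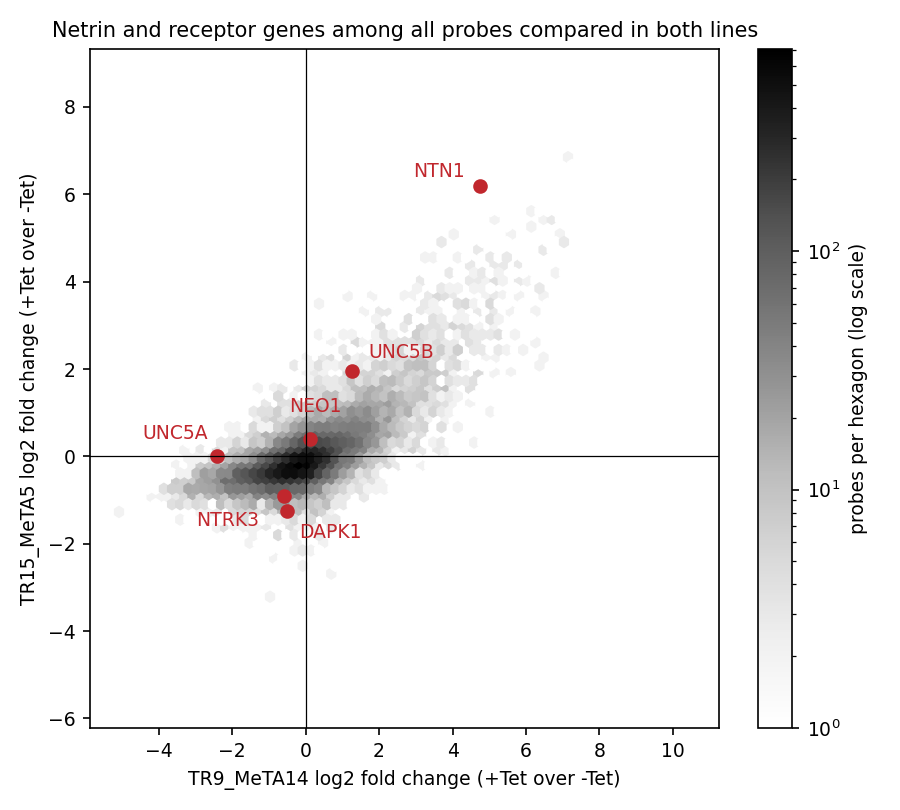
log2 ratio with tetracycline over without it in TR9_MeTA14 (x axis) and TR15_MeTA5 (y axis), with all probes compared in both lines as grey hexagons shaded by their number on a log scale and the 6 named genes in red, lower limits drawn at the limit. NTN1 lies near the top of the cloud for TR15_MeTA5 (4.75 and 6.20), UNC5B within its upper right arm, and UNC5A in its left part on the zero line of TR15_MeTA5.

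Genes whose 4 scaled log2 values, each centred on its own mean, lay nearest to those of UNC5A among 12689 genes detected on all arrays were OR8A1 (Euclidean distance 0.18 on the log2 scale), C9orf152 (0.31) and SNHG3 (0.33). For UNC5B they were TCF7 (0.10), THEMIS2 (0.18) and HBM (0.21). Both sets were found by search over only 4 arrays and describe likeness of pattern alone.

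Further netrins and ligands of these or related receptors were looked at as a list of 14 genes, of which 10 were detected on at least 1 array. The list includes the netrin-G genes NTNG1 and NTNG2, whose membrane-bound proteins bind netrin-G ligands rather than DCC or UNC5 receptors. Of the 8 genes compared in both lines, 4 (NTN5, NTNG2, RGMA and FLRT1) passed 2-fold upward in each line and none passed it downward in each, while 8.22% of 13973 genes were higher in both and 0.837% lower. The median log2 ratio of the list was 0.46 in TR9_MeTA14 and 1.05 in TR15_MeTA5, beside -0.06 and -0.16 over all genes compared. NTNG2 gave 79.3 without and 1423 with tetracycline in TR9_MeTA14 and 130.3 and 749 in TR15_MeTA5, 14.3-fold and 3.89-fold higher. FLRT1, of a family of UNC5 ligands, was at least 8.82-fold and at least 2.21-fold higher. RGMA, a ligand of neogenin, was at least 2.24-fold and at least 2.16-fold higher, and NTN5 was 2.05-fold and 2.77-fold higher. RGMB, another neogenin ligand, was 2.25-fold lower in TR9_MeTA14 and 1.22-fold lower in TR15_MeTA5. None of the 4 passed the test over both lines (limma adjusted p = 0.0929 for NTNG2, 0.118 for FLRT1, 0.0855 for RGMA and 0.158 for NTN5). FLRT1 and RGMA were well above background only with tetracycline and entered the comparison and the test through those arrays. Their fits took background signals without tetracycline as measured, 6.41 and 7.76 for FLRT1 and 7.35 and 3.27 for RGMA. The count of 4 was 2 with quantile normalization (FLRT1 and NTNG2) and 1 with normexp and quantile normalization together (NTNG2).

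Of 19 other netrin, neurotrophin and dependence receptors, 13 were compared in both lines, and the 2 that passed 2-fold upward in each, PLXND1 and MCAM, also passed the test, where 8.22% of all genes passed 2-fold upward in both lines. In single lines 2 were at least 2-fold lower in TR9_MeTA14 (CDON 3.58-fold and IGF1R 2.91-fold) and 1 in TR15_MeTA5 (BOC 2.43-fold), while 15.1% and 2.21% of all genes were lower. At least 2-fold higher were 3 in TR9_MeTA14 (PLXND1, MCAM and KREMEN1 at 3.28-fold), where 16.8% of all genes were higher. In TR15_MeTA5 they were 4 (PLXND1, MCAM, NGFR at least 6.09-fold and RET 2.49-fold), where 9.78% of all genes were higher. There KREMEN1 was 1.57-fold higher, and in TR9_MeTA14 RET was 1.41-fold higher and NGFR was not detected. PLXND1, a semaphorin receptor, gave 57.6 and 1186 without and with tetracycline in TR9_MeTA14 and 40.0 and 1209.9 in TR15_MeTA5, 16.4-fold and 20.4-fold higher (log2 effect 4.19, limma adjusted p = 0.0167). MCAM, a cell adhesion molecule that binds netrin-1, gave 21.9 and 330.1 in TR9_MeTA14 and 4.26, not well above background, and 325 in TR15_MeTA5, 12.0-fold and at least 14.2-fold higher (log2 effect 4.64, limma adjusted p = 0.0491). The fit for MCAM took that background signal as measured. Its effect is larger than the log2 ratio of 3.59 in TR9_MeTA14 and the lower limit of 3.83 in TR15_MeTA5, and its adjusted p lies just under 0.05. The median of the list was 0.09 and 0.04, beside -0.06 and -0.16 over all genes. With spike-in scaling KREMEN1 also passed 2-fold in each line.

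A list of 14 genes around death signalling by dependence receptors was also looked at, not all of them effectors of DCC or UNC5 receptors. Of these, 11 were compared in both lines and none was 2-fold higher or lower in both, except DAPK3 with spike-in scaling. In TR9_MeTA14 the initiator caspase CASP9 was 2.30-fold higher and DAPK3, a kinase related to DAPK1, 2.03-fold higher, where 16.8% of all genes were at least 2-fold higher, and in TR15_MeTA5 they were 1.04-fold and 1.84-fold higher. There FHL2 was at least 4.54-fold higher, where 9.78% of all genes were at least 2-fold higher, while in TR9_MeTA14 FHL2 was 1.32-fold lower. Of 24 genes of guidance signalling, 21 were compared, none was 2-fold higher in either line, and 5 were lower in TR9_MeTA14, namely FYN (at least 3.41-fold), SIAH2 (2.72-fold), PTPN11 (2.39-fold), PAK1 (2.38-fold) and ABLIM3 (2.07-fold), where 15.1% of all genes were lower. The count of 5 ran from 3 to 6 under the other normalizations. The medians were -0.20 and -0.22 for death signalling and -0.42 and -0.21 for guidance signalling in TR9_MeTA14 and TR15_MeTA5, beside -0.06 and -0.16 over all genes. With spike-in scaling those in TR15_MeTA5 were 0.28 and 0.29, beside 0.34 over all genes.

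Some markers of the prostate lineage and of other cells also differed with tetracycline, and their part in the results above was not tested. All 8 prostate luminal markers were detected on every array, and 5 of them were at least 2-fold lower with tetracycline in TR9_MeTA14 and 0 in TR15_MeTA5, with medians of -1.80 and -0.65, while 15.1% and 2.21% of all genes were lower. Of 3 leukocyte markers CD14 was 9.62-fold higher in TR9_MeTA14 and 4.77-fold higher in TR15_MeTA5, and the sum of the signals of the 3 genes, not scaled between arrays, was 191 without and 1025 with tetracycline in TR9_MeTA14 and 203 and 502 in TR15_MeTA5. The T-cell marker CD3E was 1.33-fold higher in TR9_MeTA14 and at least 2.55-fold lower in TR15_MeTA5. PTPRC, the pan-leukocyte marker, was 1.19-fold higher and 1.54-fold lower. The unscaled sum of 6 neuronal markers was 196 and 252 in TR9_MeTA14 and 238 and 342 in TR15_MeTA5, where the 75th percentile of the arrays was likewise higher with tetracycline. Of these 6 genes only NEFL, a neurofilament gene, was at least 2-fold higher in both lines (at least 2.92-fold and at least 4.10-fold). Of all genes compared in both lines, 8.22% were. NEFL was well above background only with tetracycline, so it entered the comparison and the test through those arrays. The fit took its background signals without tetracycline, 9.71 and 11.8, as measured (limma adjusted p = 0.0679). With normexp and quantile normalization NEFL did not pass 2-fold in both lines. The unscaled sum of 4 endothelial markers was 466 and 473, and 335 and 369.7, and the median scaled log2 ratio of those compared was -0.26 and -0.47. Among stromal markers only COL1A1 was detected and among basal markers only KRT15, while KRT5, KRT14 and TP63 were not. In RNA of whole cultures, fewer cells of a kind and less RNA per cell cannot be told apart.

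**Figure D5:**
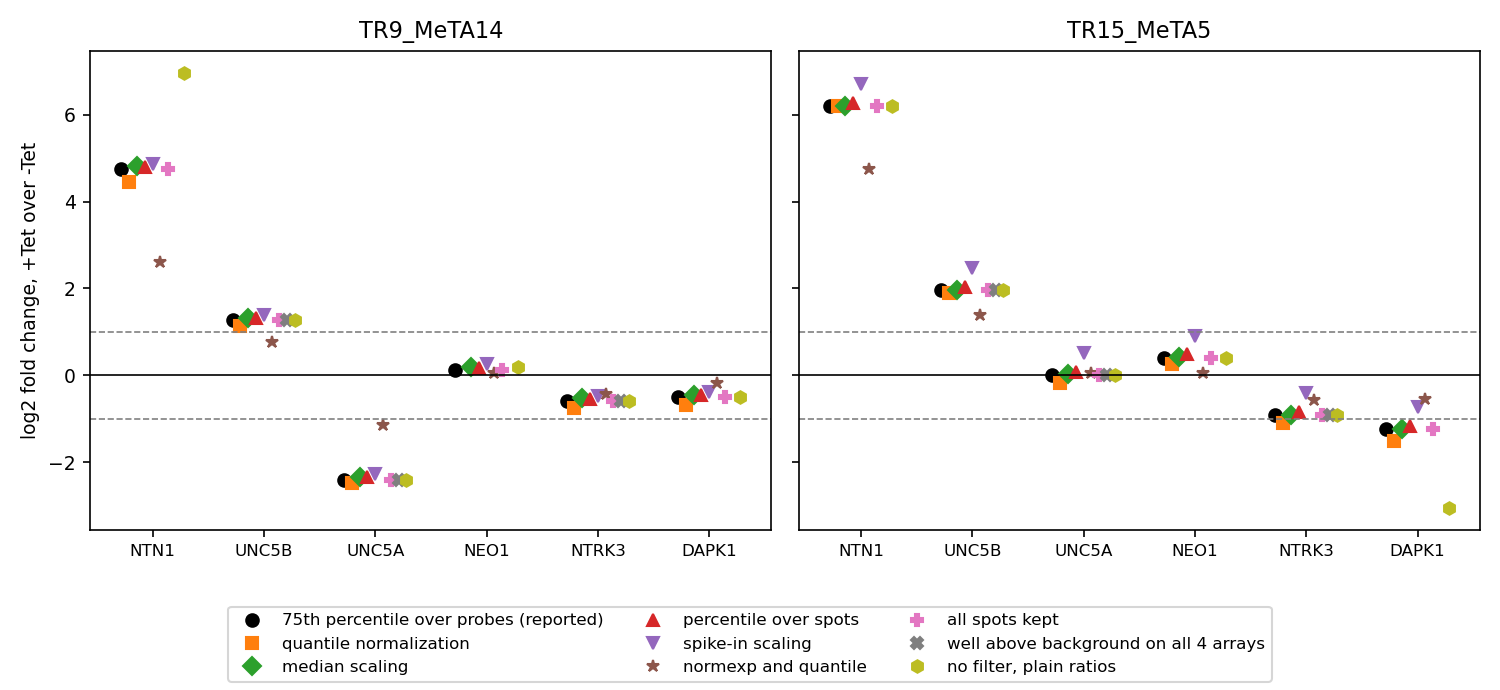
log2 ratio with tetracycline over without it (y axis) for the 6 genes (x axis) under each way of processing (symbols), TR9_MeTA14 left and TR15_MeTA5 right, with dashed lines at 2-fold. NTN1 stays above 2-fold in both lines under every setting that gives it a ratio, from 2.62 to 6.98 and from 4.76 to 6.70, and UNC5A is below the lower line in TR9_MeTA14 throughout.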

How the data were processed

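RNA of 4 cultures, 1 per condition, was labelled with Cy3 and hybridized to an Agilent array annotated on hg19. The authors deposited Feature Extraction output (version 10.7.3.1 in the file headers, 9.5.1 in the submitters' processing notes), in which the processed signal is the spot intensity after background subtraction and detrending, not normalized between arrays. Their series table repeats these intensities on all 44495 rows. Outlier spots (255 to 344 per array) were left out, log2 signals of a probe were averaged and the 75th percentile over non-control probes was subtracted. Probes were paired with genes by unversioned RefSeq accession (74.5% of probes), and the brightest probe stood for a gene in the lists. limma 3.58.1 (R 4.3.3; trend, block for line, probes detected on at least 2 arrays), tested on simulated data, gave the effect over both lines; each line alone has no replicate and no p-value. Alternatives were other normalizations, background correction, filters, cut-offs, no block and no trend. The genes named are the 10 genes, list genes past 2-fold in both lines, the 3 genes nearest to UNC5A and UNC5B and, chosen after their values were seen, CASP9, DAPK3, FHL2, KREMEN1, NGFR, RET, RGMB, CDON, IGF1R, BOC, 5 guidance genes and markers. All genes and lists were chosen with earlier results of these data known. A marker gene is not reported here.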

Additional observations from a re-analysis of the deposited data

How the results depend on the processing

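Among the 6 netrin and receptor genes compared, no ratio past 2-fold changed sign under any alternative run. The number of genes at least 2-fold higher in TR9_MeTA14 and the number higher in both lines were each 1 in place of 2 with normexp background correction and quantile normalization, which were changed together (UNC5B lost), with only probes detected on all 4 arrays (NTN1 not compared) and at a cut-off of 3-fold (UNC5B lost in TR9_MeTA14). The number higher in TR15_MeTA5 was 1 in place of 2 with only probes detected on all 4 arrays. The number lower in TR9_MeTA14 was 3 in place of 1 with plain ratios and no filter and 2 at a cut-off of 1.5-fold. The setting without a filter counts every probe of the group. What it added lies outside the 6 genes, namely the DCC probe and a UNC5C probe, neither well above background on any array. The number lower in TR15_MeTA5 was 2 in place of 1 with quantile normalization and at 1.5-fold, and 0 (DAPK1 lost) with spike-in scaling, with normexp and quantile normalization, with only probes detected on all 4 arrays and at 3-fold, and the number lower in both lines was 1 in place of 0 at 1.5-fold. By limma, 2 genes in place of 1 passed an adjusted p of 0.05 with spike-in scaling (NTN1 and UNC5B), 0 passed with only probes detected on all 4 arrays, where NTN1 was not tested, and 0 without the block. The limma adjusted p of NTN1 ran from 0.000974 without the filter to 0.0897 without the block. Over all probes limma called 162 higher and 0 lower with only probes detected on all 4 arrays, 1205 higher and 45 lower without the filter, and 1689 higher and 14 lower with spike-in scaling, in place of 576 and 2. The cause of these shifts was not tested except where a probe left the comparison. Averaging the probes of a gene changed nothing, since 1 probe per gene had a ratio.

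No paired analysis was possible because, by replicate number, the groups share only number 1, with no replicate to leave out. The limma fit pairs the arrays by cell line instead. Setting dim signals to the detection level was chosen after seeing the data. Signals of most of these probes lie near background, where the technical error is largest, and 4 arrays limit the precision.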
